A study of Mus musculus with 9 samples.

Results

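H2AK5ac-only regions are the places on the mouse genome where acetylation of histone H2A at lysine 5 was called as a peak and no peak of any other profiled mark touched the same bases. They numbered 20118 of the 69183 regions in the H2AK5ac list (29.1%, exact binomial 95% interval 28.7 to 29.4%), and 1309635 regions were listed over all marks. The study profiled 7 histone acetylations (H2AK5ac, H3K9ac, H3K14ac, H3K18ac, H3K23ac, H3K27ac and H4K8ac), H3K4me3 and an IgG control in endothelial cells isolated from the lungs of wild-type mice, by ACT-seq, in which the Tn5 transposase is tethered to a mark through its antibody and cuts and tags the DNA around it. Its title concerns histone acetylation fed by the import and breakdown of cystine, but the libraries described here carried no genotype other than wild type and no treatment named in the labels. The sources used here do not give age, sex or the number of mice per library. Every target had 1 library, so there was no replicate error and no test, and the intervals given cover counting error only. Amplified reads without molecular identifiers are not independent molecules, and regions of 1 library are not replicates.

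Lysine 5 of H2A lies in the histone's amino-terminal tail. In mammals it can be acetylated by TIP60, the catalytic subunit of the NuA4-type complex, and by the coactivators p300 and CBP, with acetyl-CoA as the donor, and histone deacetylases remove the group. Acetylated histone tails are a feature of active promoters and enhancers, where several acetylations usually lie together with H3K4me3 (at promoters) or H3K27ac (at both). Regions of a single acetylation are therefore set below against the H2AK5ac regions that overlapped another mark, called the other H2AK5ac regions.

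The members were chosen by the overlap of called peaks, a readout of the same libraries, so distances to other lists and read densities of the marks are descriptions. At the threshold of the rule, 475 members lay at most 10 bp from a region of another list, with a median of 76 H2AK5ac reads per identifier. On the other side, 530 H2AK5ac regions were overlapped by at most 10 bp, with a median of 26 reads. In the deposited table the 8 peak lists share row identifiers, so an identifier's count is the sum over regions of several lists at unrelated places. A member's count is the count of its identifier, and each list is named for the library densest in it. Of the members, 19705 lay on chromosomes 1 to 19, X and Y and 413 on other sequences, and positions are given for those on the chromosomes alone.

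Sequence was read only where a member reached a gene start. Windows of 250 bases before and 50 bases after each start came from RefSeq (GRCm38.p6, the build in the submitters' processing notes), with 32851 windows of 27025 genes. Members alone overlapped 121 windows of 118 genes, the other H2AK5ac regions alone 4682, and no H2AK5ac region 28046. Of the 332 genes in the 15 gene lists used below, 245 had a window in the table used here and none of these was overlapped by a member, so the 4 shown were chosen after their values were seen, as protein-coding genes with high H2AK5ac counts, to show what DNA lies under an H2AK5ac-only region at a start. Each line is the 250 bases before the start, 5′ to 3′ on the gene's strand, and capitals mark the bases inside the H2AK5ac-only region.
Gsn: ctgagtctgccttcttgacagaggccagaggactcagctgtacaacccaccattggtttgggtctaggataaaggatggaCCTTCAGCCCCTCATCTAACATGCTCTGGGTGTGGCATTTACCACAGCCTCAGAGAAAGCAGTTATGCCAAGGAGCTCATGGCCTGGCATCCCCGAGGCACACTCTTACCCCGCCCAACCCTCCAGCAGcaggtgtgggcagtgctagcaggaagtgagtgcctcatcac
Stx3: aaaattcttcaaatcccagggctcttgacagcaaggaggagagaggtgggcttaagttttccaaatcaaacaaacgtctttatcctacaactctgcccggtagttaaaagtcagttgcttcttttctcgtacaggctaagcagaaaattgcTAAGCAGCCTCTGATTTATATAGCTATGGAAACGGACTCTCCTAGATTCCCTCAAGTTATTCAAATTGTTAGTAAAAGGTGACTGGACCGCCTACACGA
Fgd3: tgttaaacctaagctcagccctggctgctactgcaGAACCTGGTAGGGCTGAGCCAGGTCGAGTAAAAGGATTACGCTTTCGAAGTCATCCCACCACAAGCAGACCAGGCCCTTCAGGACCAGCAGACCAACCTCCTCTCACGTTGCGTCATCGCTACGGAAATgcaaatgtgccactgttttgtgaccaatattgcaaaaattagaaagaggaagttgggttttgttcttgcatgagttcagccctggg
Gja1: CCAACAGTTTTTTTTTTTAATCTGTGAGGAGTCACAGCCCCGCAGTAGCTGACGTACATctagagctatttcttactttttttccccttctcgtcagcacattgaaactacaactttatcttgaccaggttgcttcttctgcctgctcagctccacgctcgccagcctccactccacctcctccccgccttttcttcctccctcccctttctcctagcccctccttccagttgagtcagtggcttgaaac

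The Gsn window (chr2:35266494-35266743, plus strand) precedes a start of gelsolin, an actin-severing protein, and its identifier had 818 H2AK5ac reads. The Stx3 window (chr19:11819404-11819653, minus strand) belongs to syntaxin 3, a membrane fusion protein, with 712 reads. The Fgd3 window (chr13:49309209-49309458, minus strand) belongs to a member of the FGD family of guanine nucleotide exchange factors, with 654 reads, and the Gja1 window (chr10:56377050-56377299, plus strand) to the gap junction protein connexin 43, with 540 reads. The Gsn identifier had 41 H3K14ac, 39 H3K18ac, 0 H3K23ac, 34 H3K27ac, 4 H3K4me3, 1 H3K9ac and 43 H4K8ac reads, all far under its H2AK5ac count. The highest other count was 103 (H3K4me3) in the Stx3 identifier, 150 (H3K23ac) in that of Fgd3 and 35 (H4K8ac) in that of Gja1. These counts include unrelated regions of the identifier and are not scaled to depth. IgG was 0 in all 4 identifiers. Within the 250 bases, CpG dinucleotides numbered 2 at Gsn, 6 at Stx3, 7 at Fgd3 and 6 at Gja1. For comparison, 2 endothelial genes with an H2AK5ac region shared with other marks are shown in the same way, capitals marking the bases inside that region.
Klf2: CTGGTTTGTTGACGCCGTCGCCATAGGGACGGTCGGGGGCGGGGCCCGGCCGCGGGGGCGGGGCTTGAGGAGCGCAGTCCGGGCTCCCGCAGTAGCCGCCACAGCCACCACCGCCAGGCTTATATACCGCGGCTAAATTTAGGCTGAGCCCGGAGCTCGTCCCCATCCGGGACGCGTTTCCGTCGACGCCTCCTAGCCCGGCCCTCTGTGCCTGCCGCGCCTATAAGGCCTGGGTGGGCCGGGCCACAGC
Clec14a: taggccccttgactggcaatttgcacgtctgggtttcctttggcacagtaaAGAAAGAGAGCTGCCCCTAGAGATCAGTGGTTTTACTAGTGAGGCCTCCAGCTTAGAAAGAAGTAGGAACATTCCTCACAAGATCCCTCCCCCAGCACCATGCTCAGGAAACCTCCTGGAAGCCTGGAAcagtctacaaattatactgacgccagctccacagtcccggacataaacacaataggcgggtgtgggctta

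Klf2 (chr8:72318812-72319061, plus strand) encodes a shear-responsive transcription factor of endothelium, and all 250 bases lay inside a 548-bp region and held 29 CpG. Clec14a (chr12:58269259-58269508, minus strand) encodes an endothelial surface lectin, and its 250 bases held 4 CpG. The H2AK5ac count was 0 in the identifiers of both regions, and reads that touch regions of several identifiers were not counted. Promoters under members were poorer in CpG than those under the other H2AK5ac regions. Their windows of 300 bases held a median of 5 CpG (95% order-statistic interval 4 to 6, 121 windows), against 23 (22 to 23, 4682 windows) under the other H2AK5ac regions. GC content was 52.0% (50.7 to 54.3%) at the median under members and 62.3% (62.0 to 62.7%) under the others. Windows without any H2AK5ac region had a median of 6 CpG and 51.3% GC, close to the windows under members. A window counted as under a region at any overlap, for example 2 bases at Gm40505. CpG, GC and the motifs below were read over the whole window, so they include DNA outside the region.

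Among 16 motifs searched on both strands of these windows, those of CpG-rich promoters were less frequent under members. The GC-box GGGCGG was in 30.6% (22.5 to 39.6%) of the windows under members, in 68.3% under the other H2AK5ac regions and in 35.7% of all windows. The ETS motif CCGGAAG, read by a transcription factor family that includes the endothelial factor ERG, was in 3.31% (0.908 to 8.25%) under members, 19.8% under the others and 8.86% of all. TATAAA, the TATA box, was in 13.2% (7.75 to 20.6%) under members, 5.96% under the others and 13.6% of all. The members' windows were thus near all windows for the TATA box and the GC-box and under the other H2AK5ac windows for the GC-box and ETS. The pattern TGANTCA was in 18 of the 121 windows under members (14.9%, 9.06 to 22.5%), in 8.18% under the others and in 7.81% of all. It includes the AP-1 site of the FOS and JUN factors but allows any base at its centre, so not every match is that site. The SOX motif ACAATGG was in 8 windows under members (6.61%, 2.90 to 12.6%), in 1.75% under the others and in 3.66% of all. The interval of TGANTCA lies above the share of all windows, that of ETS lies below it, and that of SOX includes it. The intervals were not adjusted for the 16 motifs, and some windows of the same gene overlap. The CRE TGACGTCA was in 0 of 121 windows under members, which allows a share of up to 3.00%, in 3.33% under the others and in 1.79% of all. Shares under members for the other motifs, with that of all windows after each, were 9.09% and 9.35% for AGGAAGT, which shares letters with CCGGAAG, 4.13% and 7.15% for CACGTG, 21.5% and 17.5% for CCCACCC, and 1.65% and 3.65% for TGTTTAC. The intervals of these 4 include the share of all windows. They were 2.48% and 3.04% for AGATAAG, 10.7% and 12.4% for TGACNNNGC, 16.5% and 14.7% for GGAATG, and 63.6% and 66.0% for CCCTC. CA repeated 6 times was in 1.65% and 1.01%, and GA repeated 6 times in 0 windows under members and 0.566% of all. A match is a run of letters in the window and not a bound site.

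The H2AK5ac column of the table was mainly a measure of these regions. The identifiers of the 20118 members held 3613952 of 4201292 H2AK5ac reads (86.0%), and those of the 49065 other H2AK5ac regions held 453764 (10.8%). The median count was 96 per member identifier, against 0 per identifier of the other regions, of which 87.3% had no H2AK5ac read. Under the counting options a read over regions of several identifiers is discarded, so the 0 counts of the other regions do not measure the mark there. Own-mark-only regions also held most of their library's reads for H3K14ac (94.3%), H3K23ac (82.4%), H4K8ac (70.6%), H3K9ac (63.8%) and H3K18ac (55.2%), but not for H3K4me3 (26.6%) or H3K27ac (14.1%).

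Counts of members on the chromosomes were spread widely. The lowest was 0, the first quartile 32, the median 100 (95% interval 96 to 102), the third quartile 278, the 95th percentile 616 and the highest 1769. Members with at least 100 reads numbered 9864 (50.1%), and the 3191 highest members (16.2%) held 50% of all member reads. Counts were thus spread over orders of magnitude rather than around a common value. Of the chromosomal members 667 (3.38%) had no read, whereas 392 of the 413 members on other sequences (94.9%) had none. Even counts made up 77.9% of the nonzero counts of members (14825 of 19038), against 51.2% in the other H2AK5ac regions with reads. For example, 294 members had 12 reads and 133 had 13. Mates of a pair were counted separately, so a pair that falls wholly inside a region adds 1 count for each mate.

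**Figure D1:**
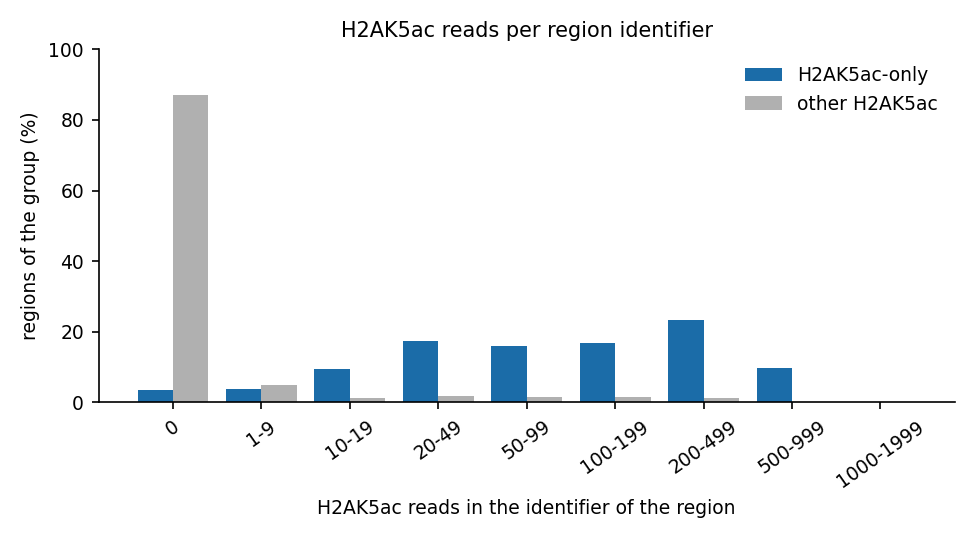
Share of regions (%, vertical axis) by the number of H2AK5ac reads in the region's identifier (horizontal axis), for the 19705 H2AK5ac-only regions (blue) and the 48110 other H2AK5ac regions (grey) on chromosomes 1 to 19, X and Y. The members spread over all bins, most often 200 to 499 reads (23.4%), while 87.1% of the other regions stand at 0 and 18 members reach 1000 reads or more.

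Density per unit length could be set beside the other H2AK5ac regions only for bases outside other marks. A fit of identifier counts on unshared bases (those that only 1 identifier's regions cover) gave 1413 H2AK5ac reads per kb in the members, against 661 per kb in the unshared bases of the other H2AK5ac regions, a ratio of 2.14. Only 680 kb of the other regions were unshared, compared with 2318 kb in the members, and reads on those short stretches that also reached a region of another identifier were discarded. The ratio is therefore partly fixed by the counting and does not show that the mark itself was denser in members. In CPM (counts per 1e6 reads of the library in the table), members had 336 H2AK5ac CPM per kb and the other regions 157.2.

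Identifier counts and fitted densities showed the other libraries differently. By CPM of the whole identifier, which sums regions of several lists, H2AK5ac was the highest library for 53.0% of members, H3K23ac for 12.9%, H3K9ac for 11.2% and H3K4me3 for 10.9%. In the fit, which assigns reads to the lists, the other libraries had low densities in the members. H3K27ac had 12.8 CPM per kb in members, compared with 14.04 in the other H2AK5ac regions. H3K18ac had 11.9 in members and 15.9 in the others, H4K8ac 7.01 in members and 10.9 in the others, and H3K14ac 0.940 in members and 1.36 in the others. Each of these 4 was lower in members. H3K23ac, H3K4me3 and H3K9ac were fitted at 0, the lower bound of the fit, in both classes, and IgG at 3.62 CPM per kb in members and 0 in the others. The H2AK5ac density of members was thus 26.2 times that of H3K27ac, the next library, a ratio that depends on how libraries are scaled and was 3.73 with TMM library sizes and 11.7 with DESeq2 size factors. The rule kept only regions without a peak of another mark, so it favours a high ratio. Of the H2AK5ac reads that the fit predicted in member identifiers without contig regions (17804 identifiers), 99.8% were assigned to the members and 0.156% to regions of other lists. These are shares of fitted, not observed, reads. They follow from the fitted densities and do not show where the observed reads lay.

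**Figure D2:**
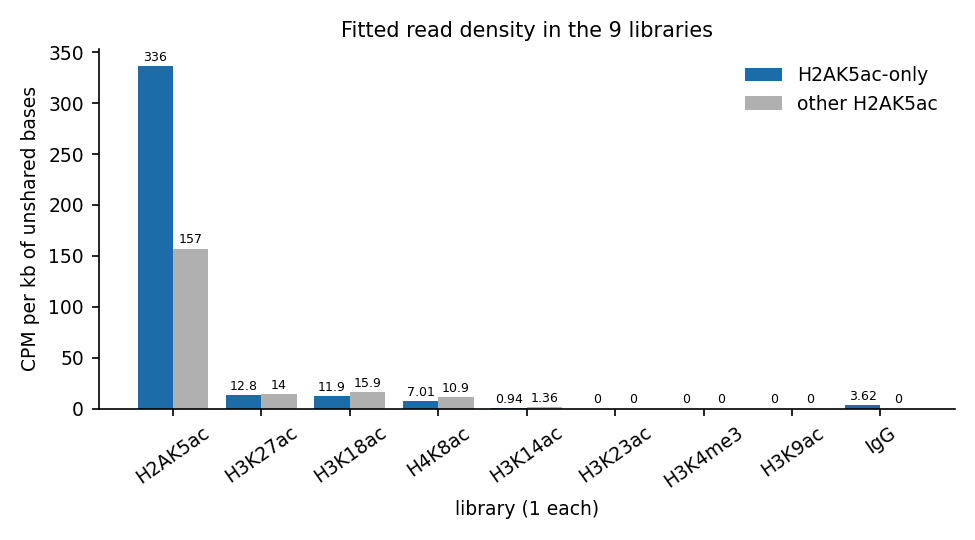
Fitted read density (CPM per kb of unshared bases, vertical axis) in each of the 9 libraries (horizontal axis, 1 library each) for H2AK5ac-only regions (blue) and the other H2AK5ac regions (grey), with values printed above the bars. H2AK5ac reads 336 in members and 157.2 in the others, and no other library exceeds 15.9 in either class.

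Against IgG, 18225 of 18299 member identifiers with at least 10 reads over the pair of libraries were 2-fold or more higher in H2AK5ac. The same held for 98.1% of all identifiers tested, and the members come from a peak list named for the same library, so nothing is read from this count. IgG reads occurred in 131 member identifiers (0.651%), against 267 identifiers of the other H2AK5ac regions (0.544%) and 903 of all identifiers (0.156%). Of all 578465 identifiers 398202 hold 1 region, whereas a member's identifier sums regions of several lists, so the last share is not for like identifiers.

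Members were almost uniform in width. The smallest width in the list, that of the members at Gsn and Fgd3 shown above, was shared by 98.0% of members (97.8 to 98.2%), against 67.1% of the other H2AK5ac regions. Width was itself used to separate the lists, and separation by genome order alone put 94.4% of members at the smallest width. The 404 wider members reached 417 bp, while the others reached 1090 bp. Wider members had more reads, with a median of 225 (187 to 266), against 98 (95 to 100) for members of the smallest width. Regions of other marks that overlapped no list were also mostly at their own list's smallest width, between 73.1% for H3K27ac-only and 98.3% for H3K9ac-only regions. In counts, however, H2AK5ac-only regions on the chromosomes had a higher median than any other single-mark set, 100 own-mark reads against 84 for H3K9ac-only, 74 for H3K23ac-only and 12 to 23 for the remaining 5 sets. The libraries differ in depth, and scaled to it the medians over all regions of a set, contigs included, were 22.9 CPM in H2AK5ac-only regions, 50.4 in H3K9ac-only and 14.99 in H3K23ac-only regions.

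The members with the highest counts were found both in genes and outside them. The member with the most reads, and the second widest, was a region of 367 bp at an end of Arhgap26 (chr18:39374778-39375144), with 1769 H2AK5ac reads. Its identifier had 30 H3K14ac, 43 H3K18ac, 138 H3K23ac, 44 H3K27ac, 9 H3K4me3, 254 H3K9ac, 16 H4K8ac and 0 IgG reads, and these counts include unrelated regions of the identifier and are not scaled to depth. The next, of 328 bp at chr6:51123088-51123415, had 1628 reads and overlapped no gene in the table, and a region at chr10:21696670-21696966 with 1446 reads did not either. The fourth, at chr10:25300523-25300674 with 1232 reads, lay in the predicted gene Gm40617. Among the 10 with the most reads, those in protein-coding genes were the Arhgap26 region and regions in Smtn, which encodes the smooth muscle protein smoothelin (1208 reads), Nol10, a nucleolar protein gene (1172 reads), and Xylt1, which encodes a xylosyltransferase of proteoglycan synthesis (1146 reads). The remaining 3 had 1116 to 1154 reads, the one at chr3:89511048-89511231 lying 9.03 kb before a start of the potassium channel gene Kcnn3. These 10 were taken from the 7472 members (37.9% of 19705) whose H2AK5ac CPM was at least 2 times that of each other library, so their low counts in other libraries were fixed by the choice.

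Width and reads did not always go together. The widest member, 417 bp at chr4:89530081-89530497, lay 158 kb before the start of Dmrta1 and had 1060 reads. Another of 332 bp at chr16:30056438-30056769 had 1046 reads, and one of 328 bp in Zmiz1, a transcriptional coregulator gene (chr14:25627281-25627608), had 962. By contrast, a member of 329 bp in Iqgap1, which encodes a scaffold protein of the cytoskeleton (chr7:80793537-80793865), had 150 reads, one of 327 bp at Slc25a34 (chr4:141622368-141622694) had 175, and one of 333 bp at Tubb6, a beta-tubulin gene (chr18:67392599-67392931), had 107.

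Members lay less often at genes' ends than the other H2AK5ac regions. Windows of 2 kb either side of both ends of protein-coding genes held 2031 of the 19705 members (10.3%, 9.89 to 10.7%), against 20.5% (20.2 to 20.9%) of the other H2AK5ac regions and 5.49% of genome bases. Spans of protein-coding genes held 54.9% of members and 59.7% of the others, against 37.9% of genome bases. Away from ends but inside genes lay 49.2% of members and 45.2% of the others, and outside both lay 40.5% of members and 34.3% of the others. The difference at gene ends was present within 1 width: among regions of the smallest width, 10.3% of members and 22.4% of the others lay at an end.

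Compared with regions found by other single marks, the share of members at gene ends was intermediate. It was above that of H3K18ac-only (8.09%), H3K27ac-only (7.82%) and H3K14ac-only regions (4.61%), and below that of H3K9ac-only (17.5%), H3K4me3-only (14.2%), H3K23ac-only (11.4%) and H4K8ac-only regions (11.1%). The interval of the members did not overlap those of H3K23ac-only (11.1 to 11.8%) and H4K8ac-only regions (10.8 to 11.3%). These intervals cover counting error only, so this is no test of a difference between marks.

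**Figure D3:**
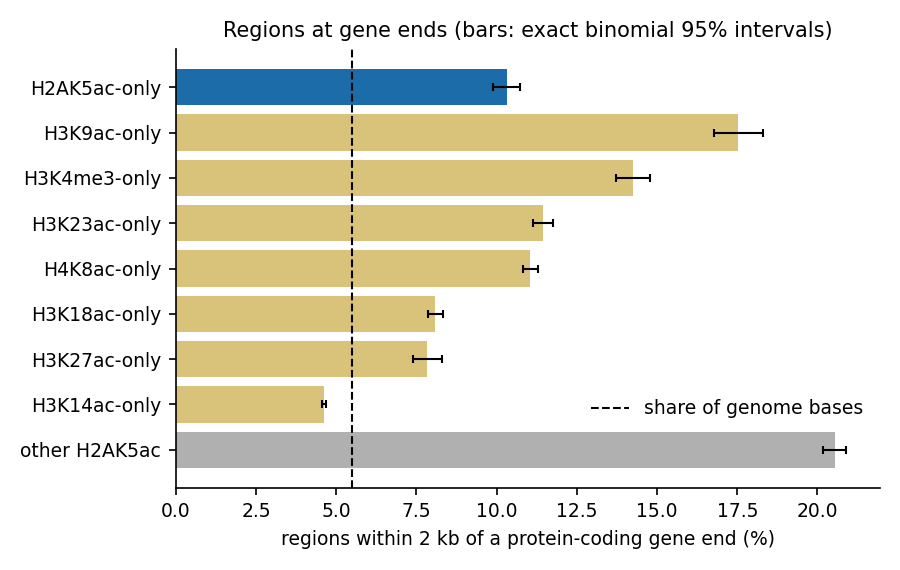
Share of regions (%, horizontal axis) within 2 kb of either end of a protein-coding gene, for H2AK5ac-only regions (blue), the regions of each other list that overlap no list (yellow) and the other H2AK5ac regions (grey), with exact binomial 95% intervals and a dashed line at the share of genome bases (5.49%). Members stand at 10.3%, below H3K9ac-only regions at 17.5% and the other H2AK5ac regions at 20.5%.

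The contrast was sharpest at gene starts. Within 250 bp of a RefSeq start lay 144 of 19054 members (0.756%, 0.638 to 0.889%), against 9.16% (8.90 to 9.43%) of 46418 other H2AK5ac regions, which is 12.1 times the share of members. Within 2 kb the shares were 7.42% of members and 19.9% of the others, and within 20 kb 48.9% of members and 54.4% of the others. The median distance to a start was 20799 bp (20273 to 21401) for members and 16689.5 bp (16372 to 16996) for the others. The rule removes regions where marks lie together, so this contrast is not independent of it. With a smaller share at starts, members had a larger share in each bin beyond 2 kb on both sides, for example 4.78% of members and 3.61% of the others at 2 to 5 kb before a start, and 17.5% of members and 14.96% of the others at 5 to 20 kb after one.

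**Figure D4:**
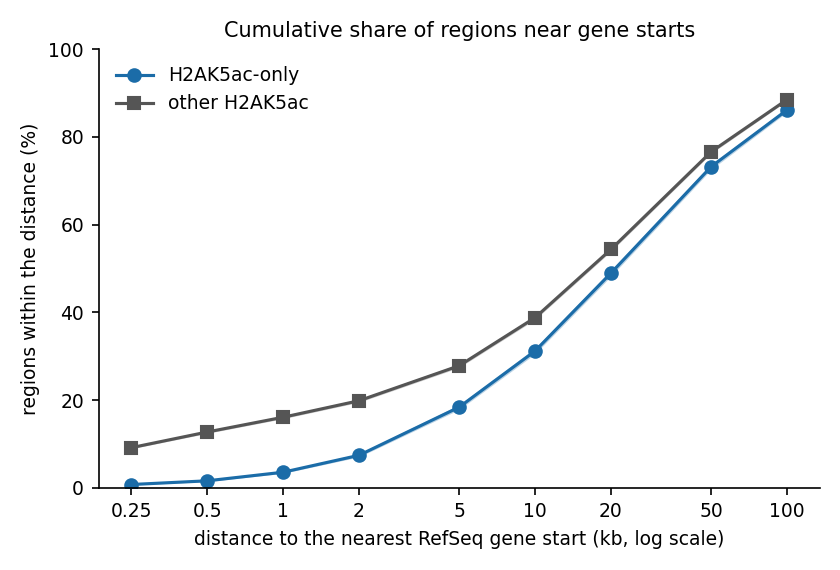
Cumulative share of regions (%, vertical axis) by distance to the nearest RefSeq gene start (kb, log scale, horizontal axis), for H2AK5ac-only regions (blue circles) and the other H2AK5ac regions (grey squares), without chromosome 18; shaded bands are exact binomial 95% intervals. The curves are farthest apart in ratio at 0.25 kb (0.756% of members, 9.16% of the others) and come together toward 100 kb (86.1% of members, 88.5% of the others).

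Members ranged from directly beside another mark to far from any. The median gap to the nearest region of any other list was 542 bp (529 to 556), with quartiles of 174 and 1317 bp. The nearest region was of H3K14ac for 45.8% of members, H4K8ac for 15.5% and H3K18ac for 13.1%. The 7 lists differ in size, and H3K14ac regions made up 46.9% of their regions, H4K8ac 14.5% and H3K18ac 13.8%. H3K23ac was nearest for 1971 members and made up 7.26% of the regions. H3K27ac was nearest for 6.42% of members and made up 9.24% of the regions. With the H3K14ac list left out the median gap was 999 bp.

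Members fell along a range from isolated regions to the flanks of places rich in marks. No region of any other list lay within 500 bp of 10285 members (52.2%), 1 to 3 lists had one within 500 bp of 7076 (35.9%), and 4 to 7 lists did for 2344 (11.9%), including 459 members with all 7. Members beside 4 to 7 lists lay at gene ends in 16.8% (15.3 to 18.3%), those beside 1 to 3 lists in 10.3% and those beside none in 8.85% (8.31 to 9.41%). An H2AK5ac region shared with another list lay within 2 kb of 70.4% of members beside 4 to 7 lists, 24.4% of those beside 1 to 3 and 15.5% of those beside none. Such shared regions exist only where another list has a region, so these shares are not independent of the grouping. Reads went the other way, with a median of 85.5 (80 to 91) beside 4 to 7 lists, 98 (94 to 104) beside 1 to 3 and 105 (100 to 110) beside none. A read that also touched a region of another identifier was discarded. Whether this lowered the counts beside other lists was not tested.

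Reads differed by small amounts with position, and were lower at gene ends than inside genes. The median was 90 (83 to 99) at gene ends, 104 (100 to 109) inside genes away from ends and 96 (91 to 100) outside genes. Within 250 bp of a start it was 75.5 (61 to 115, 144 members). By distance to the nearest other list, the median was 88 (84 to 92) under 200 bp and 110 (104 to 120) at 500 to 999 bp. Reads shared with a region of another identifier were discarded here too, and the effect on members with short gaps was not tested. It was 72 (54 to 94) for the 487 members at 5000 to 19999 bp and 40 (7 to 194) for the 31 members farther away, so counts were lower in the members far from other lists.

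Members made up a similar share of the H2AK5ac regions on every autosome. Their density ran from 6.11 per Mb on chromosome 14 to 11.7 per Mb on chromosome 11 among the autosomes, and was 2.22 per Mb on the X chromosome. Members were 26.3% (chromosome 19) to 30.5% (chromosome 5) of the H2AK5ac regions of an autosome, and 34.3% (31.5 to 37.1%) on the X chromosome.

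Chains of members at most 10 kb apart held 6540 members in 2725 groups, and 13165 members (66.8%) stood alone. The largest group had 13 members over 60.2 kb at Jade2 (chr11:51858195-51918344), the gene of a subunit of HBO1 acetyltransferase complexes, with 20 to 896 reads per member (median 152) and 7 other H2AK5ac regions among them. The next were 9 members at Rcan1 (chr16:92432707-92454619), which encodes a calcineurin regulator induced in endothelial cells by VEGF, with a median of 234 reads, and 9 at chr12:86799301-86828244, which overlapped no protein-coding gene, with a median of 170 reads.

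Over whole genes, 5631 of 21883 protein-coding genes (25.7%) had a member in their span. The genes with the most members were long ones: Ptprm, a receptor phosphatase of cell contacts, had 23 members, Tspan9, a tetraspanin, 22, Ldlrad4, an inhibitor of TGF-beta signalling, 19, Maml2, a Notch coactivator, 19, Cdh13, the GPI-anchored T-cadherin, 18, and Frmd4a, a scaffold protein of epithelial polarity, 18. Nav2 had 17, Gse1 and Plxna4, a semaphorin receptor, 16 each, and Atxn1 15. Each of the 10 also held other H2AK5ac regions, from 26 in Atxn1 to 51 in Ptprm. Per length Tspan9 had the densest set of the 10, with 12.1 members per 100 kb, against 1.05 over all protein-coding genes, and Cdh13, at 1185 kb the longest of the 10, had 1.52.

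Genes of endothelial identity carried members inside their spans more often than genes in general. A member lay in the span of 16 of 34 of them, 7 of 17 arterial and Notch genes and 10 of 21 genes of angiogenic growth, which is 47.1%, 41.2% and 47.6%, against the 25.7% of all genes. Per 100 kb they had 2.42, 3.17 and 2.59 members, against 1.05 in all. Genes of neurons had members in 7 of 18 spans but 0.381 per 100 kb, and those of liver, pancreas and muscle had 0 of 20. Of the 15 lists, 6 were above all genes on both measures, the 3 endothelial ones and also acetyl-CoA supply (30.4% and 1.57 per 100 kb), histone deacetylases (38.9% and 1.26) and amino acid and oxidative stress (27.3% and 2.88), so this was no trait of endothelial genes alone. Leukocyte genes had 4 of 21 (0.940 per 100 kb), mesenchyme 6 of 19 (0.95) and lung epithelium 4 of 19 (2.01). At gene ends, which is another measure, the other H2AK5ac regions lay at 24 of 34 identity genes, 11 of 17 arterial and 13 of 21 angiogenic genes, against 35.4% of all genes. Immediate-early (91.3%), amino acid and oxidative stress (86.4%) and housekeeping genes (68.2%) were among the other lists above that share. The lists below it were leukocytes (14.3%), mesenchyme (10.5%), neurons (22.2%) and liver, pancreas and muscle (5%). This too was no trait of endothelial genes alone.

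At gene ends, 10.1% of all protein-coding genes had a member. Immediate-early genes, which respond within minutes to stimulation, had one at 9 of 23 (39.1%), and 21 of the 23 also had other H2AK5ac regions there. Histone acetyltransferases and the TIP60 complex had a member at 6 of 25, housekeeping genes at 5 of 22, acetyl-CoA supply at 5 of 23, endothelial identity at 7 of 34, and amino acid and oxidative stress genes at 4 of 22. Histone deacetylases had 3 of 18, lung epithelium 3 of 19, mesenchyme 3 of 19, angiogenic growth 3 of 21, arterial and Notch genes 2 of 17, and neurons 2 of 18. Genes of cystine, cysteine and glutathione (3 of 30), leukocytes (2 of 21) and liver, pancreas and muscle (1 of 20) were at or under the share of all genes. In all, 12 of the 15 lists were above the share of all genes, immediate-early genes highest, but the lists are short and no test was run on them. Inside spans, by contrast, immediate-early genes had a member at 2 of 23 (8.70%), under the 25.7% of all genes. Per 100 kb they had 1.19 members, against 1.05 in all.

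**Figure D5:**
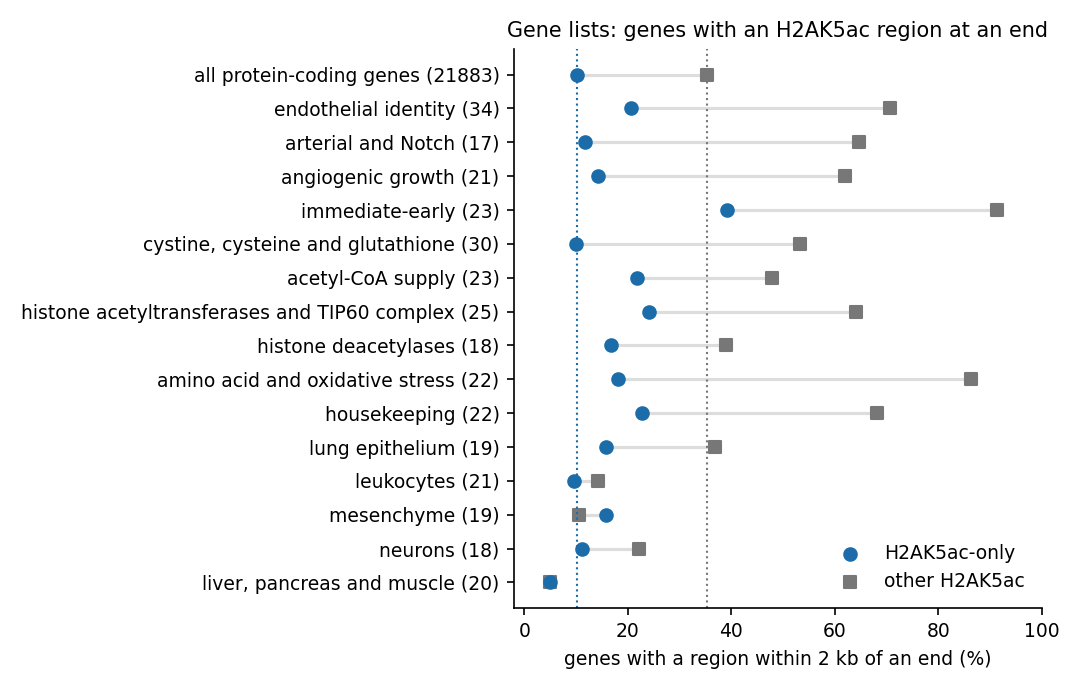
Share of genes (%, horizontal axis) with an H2AK5ac-only region (blue circles) or another H2AK5ac region (grey squares) within 2 kb of an end, for all protein-coding genes and the 15 gene lists (vertical axis, number of genes in brackets); dotted lines mark the shares of all genes, 10.1% and 35.4%. Immediate-early genes stand highest for both (39.1% and 91.3%), and mesenchyme is the list where the members' share (15.8%) is above that of the other regions (10.5%).

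Among endothelial genes, Esam, an adhesion molecule of endothelial tight junctions, had members at chr9:37527065-37527193 and chr9:37529174-37529302 with 196 and 429 H2AK5ac reads and an IgG count of 0 in both. Notch1, the receptor, had a member of 289 bp 1021 bp before a start (chr2:26504700-26504988) with 308 H2AK5ac reads, and its identifier had 49 H3K14ac, 18 H3K18ac, 6 H3K23ac, 13 H3K27ac, 5 H3K4me3, 0 H3K9ac, 14 H4K8ac and 0 IgG reads. It also had a second member of the smallest width with 35 reads, under the 79 H3K23ac, 58 H3K27ac and 51 H3K4me3 reads of its identifier. Hes1, a Notch target gene, had a member inside the gene (chr16:30065702-30065830) whose identifier had 296 H2AK5ac, 6 H3K14ac, 53 H3K18ac, 189 H3K23ac, 28 H3K27ac, 213 H3K4me3, 213 H3K9ac, 73 H4K8ac and 0 IgG reads. Several libraries were thus high in this identifier, and which of its regions held their reads was not tested. These 3 genes also had other H2AK5ac regions at their ends, 2 at Esam, 2 at Notch1 and 3 at Hes1.

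At Egfl7, an endothelial secreted factor, the member's identifier had 190 H2AK5ac reads but also 2101 IgG reads, and which of the identifier's regions held the IgG reads was not tested. Gata2, a transcription factor of endothelial and blood cells, had members with 23 and 6 reads at its upper end and no other H2AK5ac region at its ends. Ccn2, a matricellular growth factor, had 232 reads in a member inside the gene. Hif1a, the hypoxia-responsive factor, had 112 and Pgf, placental growth factor, had 10, both without other H2AK5ac regions at their ends.

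Among the other lists counts at members ranged from 0 to 712. Atf3, a stress-induced transcription factor, had a member 1121 bp before a start with 193 reads, Dusp2, a MAP kinase phosphatase, had one with 69, and the member beside Ier3 had 0. In cystine and cysteine metabolism Cars, a cysteinyl-tRNA synthetase gene, had 484 reads, Srxn1, which reduces oxidised peroxiredoxin, 90, and Got1, an aspartate aminotransferase, 27. In acetyl-CoA supply Cs, citrate synthase, had 286, Pdhb, a pyruvate dehydrogenase subunit, 32, and Cpt2, of mitochondrial fatty acid uptake, 26.

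Of the genes that write and remove acetyl groups, 3 per list were named, with ties in member bases broken by symbol. H2AK5ac reads of their members at gene ends were 48 at the acetyltransferase gene Kat8, 11 at Meaf6 and 6 at Morf4l1, both subunits of acetyltransferase complexes, and 36, 13 and 14 at the deacetylase genes Hdac5, Hdac6 and Hdac7. These 6 were below the median of 100 for members, and members at the unnamed genes of the lists were not examined singly. In amino acid stress, the glutamine transporter gene Slc1a5 had 350, against 25 at Psph and 12 at Psat1, both of serine synthesis.

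Genes of other cell types and of general upkeep also had members with high counts. Acta2, smooth muscle actin, had 2, with 712 reads 1014 bp before a start and 490 inside the gene, while Col1a1 had 71 and Pdgfrb 15. Coro1a, of leukocytes, had 450 reads, and Cd79a, of B cells, 194 and 32. The members of Acta2 were thus above those of the other 2 mesenchymal genes. Cdh1, epithelial E-cadherin, had 324, Foxj1, of ciliated cells, 310 and 170, and Krt8 208 and 30. Gapdh had 506, Psmb2, a proteasome subunit, 556 and Actb 136. Tubb3 and Nefm, of neurons, had 204 and 22, and Cyp3a11, a liver cytochrome, 316. A high count at a member was thus found at genes of endothelial and of other cell types.

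As a check of the cell label, the ends of 10 defining endothelial genes carried regions of a median of 8 of the 8 lists (range 0 to 8, 7 genes with all 8). The medians were 3 lists over 19 genes of lung epithelium (range 0 to 8, 4 genes with all 8) and 2 over 21 of leukocytes (1 to 8, 1 gene with all 8). The median was 4 over 19 genes of mesenchyme (0 to 7, 0 genes with all 8). Among these genes members lay at an end of 3 endothelial, 3 epithelial, 2 leukocyte and 3 mesenchymal genes. Any H2AK5ac region lay at an end of 9 of the 10 endothelial genes and of 8, 4 and 3 of the epithelial, leukocyte and mesenchymal genes. The share of cells of other types in the preparation was not tested.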

How the data were processed

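The 1 deposited table holds raw read counts for 578465 identifiers in 9 libraries, counted by featureCounts 2.0.6 from a region file, per the file headers, with the paired-end option, without strand and without options for read pairs, multi-mapping reads or reads over several identifiers. Per the submitters' processing notes, the tools included the aligner STAR and the peak caller MACS2, and the build was mm10 (GRCm38.p6). The sources used here do not give peak settings or duplicate removal. Table totals ran from 365999 reads (IgG) to 10044130 (H3K14ac).

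The 8 peak lists under shared identifiers were separated by genome order and smallest width (0 order breaks), with the method tested on simulated lists, and named by the densest library. A member overlaps no other list by 1 bp or more. Densities came from non-negative least squares (scipy 1.17.1, numpy 2.4.6), shares from exact binomial 95% intervals, and gene positions from RefSeq tables (GRCm38.p6). IgG comparisons used CPM with a prior count of 2. TMM (edgeR 4.0.16) and DESeq2 1.42.0 size factors were alternatives. The members, the 15 gene lists and the motifs were chosen with earlier results of these data known. Named members are the 10 widest, the 10 with the most H2AK5ac reads at 2 times or more the CPM of each other library, and the 3 largest groups. Named genes are the 10 with the most members and up to 3 per list with the most member bases at their ends, ties by symbol. Chromosome 18 and genes without a window in the promoter table were not used here for distances to starts, and sequence composition of whole regions was not analysed here.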

Additional observations from a re-analysis of the deposited data

How the results depend on the processing

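The number of members stayed within 1.5 times of 20118 under 11 alternatives (19705 to 26079), among them leaving out each of the 7 other lists, and was 10531 when regions of other lists within 500 bp also counted as overlap. That requirement gave 8.86% at gene ends and 53.9% inside genes. Separation by genome order alone put 94.4% of members at the smallest width. Gene-end shares were 5.24% with windows of 1 kb, 22.1% with windows of 5 kb and 12.5% for wider members, which lay inside genes in 55.7%. The median distance to another list was 999 bp without H3K14ac and 459 bp for wider members. The density ratio of members to other H2AK5ac regions was 2.79 with Poisson weights and 2.13 over identifiers with at least 10 reads. The ratio of H2AK5ac to the next library was 3.73 with TMM and 11.7 with DESeq2 size factors. Causes of these moves were not tested. Identifiers over IgG numbered 18227 to 18944 under 4 alternatives. GC content of whole regions was not run, since no genome of the build was used here. No paired analysis was possible because each target had 1 library. With 1 library per target, differences between marks cannot be told apart from differences between antibodies or libraries.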

Other observations

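Of 1005 miRNA hairpins in the RefSeq table, 3 were overlapped by an H2AK5ac-only region and 28 by another H2AK5ac region.

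On the Y chromosome 23 of 41 H2AK5ac regions were members (56.1%, 39.7 to 71.5%), with a median of 6 reads, against a median of 100 over all chromosomes. Among autosomes median counts of members ran from 81 on chromosome 17 to 112.5 on chromosome 8, and the X chromosome had 81.5.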
